A study of Mus musculus with 18 samples.

Results

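Conventional dendritic cells are followed here through 9 genes that mark them: Flt3, Zbtb46, Xcr1, Clec9a, Batf3, Itgae, Clec4a4, Esam and Mgl2. The genes were chosen by name, with earlier results of these data known. They were found by the Ensembl identifier that carries each symbol in GENCODE M21. All 9 were present among the 55414 identifiers of the count table. All 9 also passed the filter on low counts in every comparison.

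Conventional dendritic cells take up antigen and present it to T cells, and they depend on the cytokine Flt3 ligand and its receptor Flt3. In the mouse spleen they form a pair of subsets. The cDC1 subset needs the transcription factors Irf8 and Batf3, takes up dead cells and presents their antigens to CD8+ T cells. The cDC2 subset sits mainly in the bridging channels and the marginal zone, depends in part on Irf4 and Notch2, and presents antigen to CD4+ T cells. Zbtb46 is a transcription factor of the committed conventional lineage. The spleen also holds red pulp macrophages, which clear old red blood cells and express Vcam1 and Csf1r.

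Polyadenylated RNA was sequenced from wild type C57BL/6J mice in 2 experiments. In the first, whole spleens were taken after 30 days of filtered air (4 libraries) or PM2.5, fine airborne particles (4 libraries). In the second, macrophages were isolated from spleens of the air group (5 libraries) and the PM2.5 group (5 libraries), and the labels add a stay in filtered air after the 30 days of exposure. The labels call the PM2.5 groups CAP, a short form they do not expand. They give no age, sex or method of isolation. Libraries are labelled as biological replicates, but no label ties them to separate animals, so p-values measure the spread between these samples, which may be technical.

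Total counts lay between 16493694 and 20352346 per spleen library and between 18107264 and 33844807 per macrophage library. In macrophage PM2.5 replicate 1 the treatment tag reads air, while title and description place it with PM2.5. It was grouped by title, and results that rest on it are also given with it counted as air or left out. The isolated material matched its label: Vcam1 stood at 5460 ± 692 CPM (SD, n = 5) in macrophage air and 137.8 ± 43.5 CPM (SD, n = 4) in spleen air, where CPM is a gene's count relative to the scaled size of its library. The T cell gene Cd3e stood at 5.81 ± 1.11 CPM and 105.0 ± 9.90 CPM in the same groups. These values were scaled within each experiment. Scaled over all 18 libraries, Vcam1 ran from 5077 to 6995 CPM in macrophage air and from 100.4 to 183.8 CPM in spleen air. Markers of B cells were still present in the macrophage preparations, where 14 of them summed to between 3514 and 6022 CPM. Sums of markers, here and below, are scaled over all 18 libraries.

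The sequence just before the start site is shown for Flt3 and Clec9a, whose PM2.5 effects differed most by p between the 2 experiments, and for Xcr1, a cDC1 gene with effects near 0 in both. These 3 were picked after their values were seen. Each run is the 250 bases upstream of the RefSeq start, read 5′ to 3′ on the gene's strand in GRCm38.p6. Capitals mark a match to GGAAGT, the core bound by ETS factors, on either strand. The windows lie at chr5:147400490-147400739 (minus strand) for Flt3, chr6:129408612-129408861 (plus strand) for Clec9a and chr9:123862030-123862279 (minus strand) for Xcr1.
Flt3: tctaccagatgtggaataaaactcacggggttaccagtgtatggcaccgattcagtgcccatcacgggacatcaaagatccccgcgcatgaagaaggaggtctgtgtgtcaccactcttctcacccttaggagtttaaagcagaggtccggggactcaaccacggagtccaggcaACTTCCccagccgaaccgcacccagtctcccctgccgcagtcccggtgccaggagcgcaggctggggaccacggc
Clec9a: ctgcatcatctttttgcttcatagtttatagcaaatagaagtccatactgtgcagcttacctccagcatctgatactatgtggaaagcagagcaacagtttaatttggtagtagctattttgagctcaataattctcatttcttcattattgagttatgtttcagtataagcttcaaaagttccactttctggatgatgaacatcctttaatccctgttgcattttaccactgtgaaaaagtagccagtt
Xcr1: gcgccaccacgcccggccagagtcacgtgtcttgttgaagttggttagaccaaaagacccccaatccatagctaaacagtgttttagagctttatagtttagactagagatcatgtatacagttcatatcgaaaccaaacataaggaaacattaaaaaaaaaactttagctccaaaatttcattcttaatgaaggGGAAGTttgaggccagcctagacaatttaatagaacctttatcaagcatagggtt
The Flt3 window held the match on the other strand, from 75 to 70 bases before the start, and the Xcr1 window held it on the gene's strand, from 55 to 50 bases before the start. The Clec9a window held none of the 3 motifs searched. The others were the pair of interferon regulatory factor sites, GAAA then any 2 bases then GAAA, and TGANTCA, the AP-1 site. All were searched on both strands. Over 32851 RefSeq windows of the same length, GGAAGT occurred in 19.7%, the interferon regulatory factor pair in 2.98% and TGANTCA in 6.75%. Windows were at hand for 6 of the 9 genes. Zbtb46 held 1 match to TGANTCA, and Batf3 and Mgl2 held 1 match each to GGAAGT. The RefSeq start behind the Zbtb46 window lies 35038 bases from the GENCODE gene start, and those of Batf3 and Mgl2 lie 567 and 28 bases from it. GC content was 59.2% in the Flt3 window, 35.6% in Clec9a and 38.8% in Xcr1, against a median of 52.4% over all windows.

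Counts per library ranged from 528 to 3330 for Flt3, 314 to 1442 for Zbtb46, 243 to 1129 for Batf3, 272 to 951 for Clec9a and 215 to 708 for Esam. They were lower for Clec4a4 (71 to 445), Xcr1 (114 to 401) and Itgae (78 to 203). Mgl2 was the scarcest, with 0 to 89 counts. Parts of 3 genes cannot be told from a neighbour or relative by sequence. Among the words of 50 bases in their GENCODE M21 transcripts, 15.7% of those of Clec4a4 also occur in its paralogue Clec4a2, and 12.2% of those of Mgl2 in its paralogue Clec10a. For Clec9a the share was 4.02%, with its neighbour Clec1b, a platelet and myeloid receptor that overlaps it on the same strand by 184 exon bases. For the other 6 genes the share found in any other gene was at most 1.43%, in Xcr1. How the authors' counting treated shared reads is not given in the sources used here.

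Compared between genes as CPM per kilobase of exon, scaled over all 18 libraries, Batf3 was highest in every group, at 10.7 ± 1.36 (SD, n = 4) in spleen air and 21.4 ± 3.59 (SD, n = 5) in macrophage air. Clec4a4, Esam, Flt3 and Clec9a followed in spleen air at 5.92 ± 1.24, 5.52 ± 0.51, 5.13 ± 0.754 and 5.08 ± 0.761 CPM per kilobase, with ranges that overlapped from each to the next. A gap then separated Clec9a from Zbtb46 at 2.42 ± 0.864, whose range overlapped that of Xcr1 at 2.07 ± 0.789, and Xcr1 that of Itgae at 1.44 ± 0.137. Mgl2 came last at 0.378 ± 0.331 and did not reach Itgae. In macrophage air Clec4a4 was again next to Batf3, at 17.0 ± 5.32, then Flt3 at 13.4 ± 4.74, Clec9a at 9.09 ± 1.04 and Esam at 8.28 ± 0.921, and each of these overlapped its neighbour. Zbtb46, Xcr1, Itgae and Mgl2 kept the last 4 places in that order in all 4 groups. The cDC1 genes Batf3 and Itgae thus stood at opposite ends of the order, and so did the cDC2 genes Clec4a4 and Mgl2 in macrophages.

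**Figure D1:**
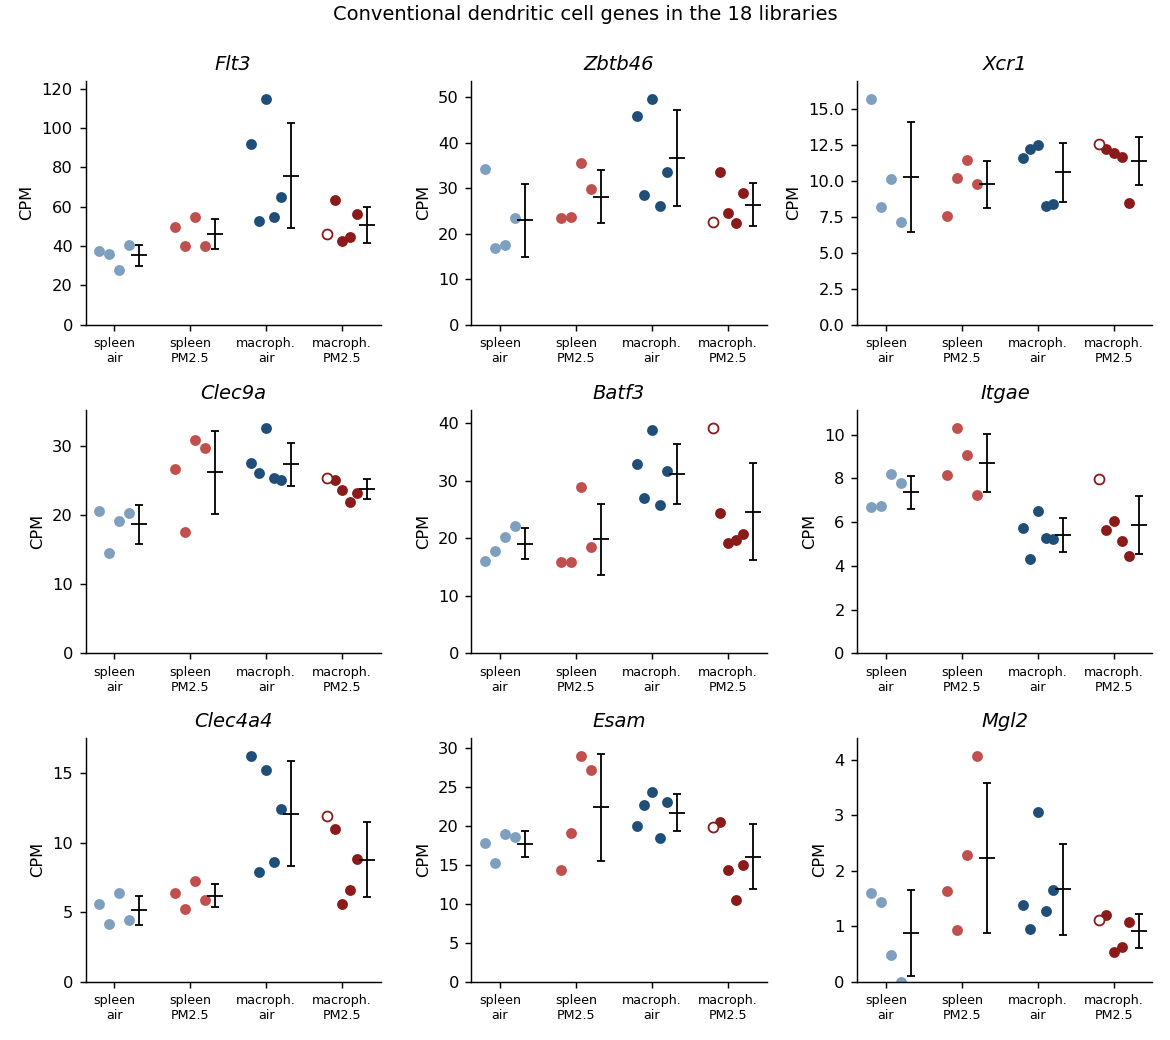
Levels of the 9 genes in CPM, scaled within each experiment, 1 panel per gene with its own axis from 0. Points are libraries (4 per spleen group, 5 per macrophage group), the open point is macrophage PM2.5 replicate 1, and the black mark and bar are the group mean and SD. In no gene do the air and PM2.5 points of an experiment separate fully.

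The first question was whether the genes differed between air and PM2.5 in whole spleen. None of the 9 was called, where called means an adjusted p under 0.05 in edgeR's quasi-likelihood test, against 2 of 16551 genes tested (0.0121%). Flt3 and Clec9a had an unadjusted p under 0.05, both higher in PM2.5, while 8.93% of all genes did so. DESeq2 and limma-voom called none of the 9 either. The log2 fold changes, PM2.5 minus air, were above 0 for 8 genes and below 0 for 1, with a median of 0.29, beside 51.8% above 0 and a median of 0.02 over all genes. No gene had air and PM2.5 groups that did not overlap, which was so for 8.95% of all genes. In tissue RNA, a change in the number of cells that express a gene and a change in RNA per cell cannot be told apart.

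Flt3, the receptor tyrosine kinase that drives dendritic cell development, stood at 37.2, 36.1, 27.9 and 40.4 CPM in spleen air replicates 1 to 4 and at 49.7, 40.1, 54.8 and 39.9 CPM in spleen PM2.5. PM2.5 replicates 1 and 3 lay above every air library, and replicates 2 and 4 lay just below the highest one. The log2 fold change was 0.38 (SE 0.160, adjusted p = 0.264). Zbtb46 stood at 34.2, 16.8, 17.6 and 23.6 CPM in air and 23.5, 23.8, 35.7 and 29.9 CPM in PM2.5. Air replicate 1 was nearly as high as the highest PM2.5 library, and the difference of 0.29 on the log2 scale (SE 0.242, adjusted p = 0.581) was close to its error.

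Clec9a, the cDC1 receptor for exposed actin of dead cells, stood at 20.6, 14.5, 19.2 and 20.4 CPM in spleen air and 26.8, 17.5, 30.9 and 29.7 CPM in PM2.5. All PM2.5 libraries but replicate 2 were above the air range, and the log2 fold change was 0.49 (SE 0.204, adjusted p = 0.261). Clec1b, whose exons overlap it, had a log2 fold change of -0.07 (SE 0.301). Xcr1, the chemokine receptor that pairs cDC1 with CD8+ T cells, stood at 15.7, 8.18, 10.1 and 7.11 CPM in air and 7.57, 10.2, 11.4 and 9.77 CPM in PM2.5. Air replicate 1 was the highest of the 8 libraries. The log2 fold change of Xcr1 was -0.07 (SE 0.270, 95% interval -0.67 to 0.52), and it was 0.20 without that library.

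Batf3, the transcription factor cDC1 require, stood at 16.1, 17.8, 20.3 and 22.1 CPM in spleen air and at 15.8, 15.95, 29.0 and 18.5 CPM in PM2.5. Only PM2.5 replicate 3 was above the air range, and the log2 fold change of 0.06 (SE 0.220, 95% interval -0.43 to 0.54) became -0.19 without it. Itgae, the integrin chain CD103 found on cDC1 and on some T cells, stood at 6.71, 6.74, 8.20 and 7.80 CPM in air and 8.14, 10.3, 9.07 and 7.25 CPM in PM2.5. The groups overlapped, with a log2 difference of 0.24 (SE 0.209, adjusted p = 0.604). Haspin, a gene on the opposite strand within Itgae that shares no exon bases with it, had a log2 fold change of 0.29 (SE 0.254).

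Among the cDC2 genes, Clec4a4, which encodes the inhibitory lectin DCIR2, stood at 5.58, 4.12, 6.399 and 4.43 CPM in spleen air and 6.36, 5.24, 7.23 and 5.86 CPM in PM2.5. The log2 fold change was 0.27 (SE 0.248, adjusted p = 0.628), and the groups overlapped. Esam, an adhesion molecule of a Notch2-dependent cDC2 population that is also made by endothelium and platelets, stood at 17.9, 15.2, 19.0 and 18.6 CPM in air and 14.3, 19.1, 29.0 and 27.2 CPM in PM2.5. PM2.5 replicates 3 and 4 were high and replicate 1 was the lowest of all 8, and the log2 fold change was 0.34 (SE 0.224, adjusted p = 0.481). Mgl2, the lectin CD301b of a cDC2 and macrophage population, had 24, 27, 9 and 0 counts in air and 35, 17, 46 and 79 counts in PM2.5. Its log2 fold change of 1.34 (SE 0.842, 95% interval -0.52 to 3.19) was the largest of the 9 and the least precise.

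Markers of other cells moved across the same spleen libraries. The 18 endothelial markers summed to 367 to 415 CPM in air and 467 to 665 CPM in PM2.5, and the 15 platelet markers to 158 to 295 CPM and 187 to 477 CPM. No marker of either list was at 0 in a group. Within groups, Esam had a Pearson r of 0.86 with the platelet list, 0.76 with the mesothelial list, 0.74 with the neutrophil list, 0.68 with the endothelial list, 0.65 with the monocyte list, 0.63 with the early progenitor list and 0.62 with the stromal list. Other members had high values too: over the 9 genes, r with the endothelial list ran from -0.50 (Itgae) to 0.71 (Mgl2). With the platelet list it ran from -0.17 (Flt3) to 0.86 (Esam). With the red pulp macrophage list it ran from -0.60 (Itgae) to 0.86 (Zbtb46). These r are over 8 libraries, and the genes of a library share its scaling. The 9 mesothelial markers, genes of the organ's covering, summed to 4.06 to 5.72 CPM in air and 42.3 to 240.5 CPM in PM2.5. The 15 erythroid markers ran from 383 to 3341 CPM in air and from 1000 to 16633 CPM in PM2.5, and the 17 red pulp macrophage markers from 621 to 1088 CPM and from 985 to 1346 CPM. B cell markers (14) ran the other way, from 8336 to 9338 CPM in air and from 6041 to 8326 CPM in PM2.5. The part of these in the values of the 9 genes was not tested. Liver transcripts were present in spleen air replicates 3 and 4. Without both, the median log2 fold change of the 9 genes was 0.35 and none had an unadjusted p under 0.05. In that fit 7.1% of all genes had such a p in either direction, against 16.7% with all 8 libraries. Without PM2.5 replicates 2 and 4, the most erythroid libraries, the median was 0.40 and 2 genes had such a p, beside 8.69% of all genes.

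The second comparison asked the same of the isolated macrophages. Again none of the 9 genes was called by edgeR, and none of the 15696 genes tested was (0%); the smallest adjusted p of any gene was 0.183. DESeq2 called 175 genes and limma-voom 0, and neither called any of the 9. Flt3, Zbtb46, Clec9a, Esam and Mgl2 had an unadjusted p under 0.05 and all were lower in PM2.5, while 4.61% of all genes had such a p and were lower. The log2 fold changes were below 0 for 7 genes and above 0 for 2, with a median of -0.44, beside 51.4% above 0 and a median of 0.01 over all genes. No gene had groups that did not overlap, which was so for 2.23% of all genes.

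Flt3 stood at 91.9, 52.7, 115, 55.0 and 64.9 CPM in macrophage air replicates 1 to 5 and at 45.9, 63.6, 42.3, 44.7 and 56.3 CPM in PM2.5. Air replicates 1 and 3 were far above the rest, and the other air libraries overlapped PM2.5. The log2 fold change was -0.59 (SE 0.211, adjusted p = 0.368). Zbtb46 stood at 46.0, 28.5, 49.6, 26.0 and 33.6 CPM in air and 22.5, 33.6, 24.7, 22.4 and 28.9 CPM in PM2.5. The same air libraries were high, and the log2 fold change was -0.48 (SE 0.188, adjusted p = 0.396).

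Of the cDC1 genes, Clec9a stood at 27.6, 26.2, 32.7, 25.4 and 25.1 CPM in macrophage air and 25.5, 25.1, 23.6, 21.9 and 23.2 CPM in PM2.5. Its libraries spread little and the groups overlapped only at their edges, with a log2 difference of -0.20 (SE 0.0888, adjusted p = 0.444). Xcr1 stood at 11.6, 12.2, 12.5, 8.24 and 8.42 CPM in air and 12.6, 12.2, 11.9, 11.6 and 8.44 CPM in PM2.5. Both groups held libraries near 8 and near 12, and the log2 fold change was 0.10 (SE 0.154, 95% interval -0.24 to 0.43).

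Batf3 stood at 33.01, 27.0, 38.9, 25.8 and 31.6 CPM in macrophage air and at 39.3, 24.4, 19.1, 19.7 and 20.7 CPM in PM2.5. PM2.5 replicate 1, the library tagged as air, was the highest of all 10, and the other 4 PM2.5 libraries were below every air library. The log2 fold change of -0.35 (SE 0.196, adjusted p = 0.551) became -0.59 (adjusted p = 0.253) without that library and -0.65 (adjusted p = 0.529) with it counted as air. Itgae stood at 5.72, 4.31, 6.51, 5.28 and 5.23 CPM in air and at 7.98, 5.65, 6.03, 5.15 and 4.45 CPM in PM2.5. Here too PM2.5 replicate 1 was highest, and the log2 fold change of 0.10 (SE 0.168, 95% interval -0.26 to 0.47) became -0.04 without it and -0.14 with it counted as air.

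The cDC2 genes were all lower on average in PM2.5. Clec4a4 stood at 16.2, 7.91, 15.2, 8.57 and 12.4 CPM in macrophage air and 11.9, 11.0, 5.59, 6.601 and 8.79 CPM in PM2.5, a log2 difference of -0.47 (SE 0.252, adjusted p = 0.529). Air replicates 1 and 3 were again the highest, and the rest overlapped. Esam stood at 19.97, 22.7, 24.4, 18.5 and 23.0 CPM in air and 19.9, 20.5, 14.4, 10.4 and 15.01 CPM in PM2.5, with 3 PM2.5 libraries below the air range. Its log2 fold change was -0.44 (SE 0.167, adjusted p = 0.385). Mgl2 had 38, 17, 89, 27 and 30 counts in air and 20, 34, 18, 13 and 31 counts in PM2.5, and its log2 fold change was -0.89 (SE 0.343, adjusted p = 0.389). Air replicate 3 held the most counts of Mgl2 of the macrophage libraries. Scaled over all 18 libraries, it stood at 3.35 CPM, and spleen PM2.5 replicate 4 was higher at 3.69 CPM.

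Markers of other cells also varied across the macrophage libraries, with 0 called by edgeR in each list named here. All 11 plasma cell markers had a log2 fold change above 0 (9 with an unadjusted p under 0.05, median 0.90), and they summed to 1010 to 2726 CPM in air and 1707 to 5002 CPM in PM2.5. Of 13 neutrophil markers tested, 11 were above 0 (8 with such a p, median 1.52), and the list summed to 161 to 255 CPM in air and 148 to 387 CPM in PM2.5. Of 17 T cell markers, 15 were above 0 (4 with such a p), and they summed to 219 to 298 CPM and 227 to 319 CPM. Red pulp macrophage markers ran the other way: 15 of 16 tested were below 0 (4 with such a p, median -0.14), with sums of 24081 to 33826 CPM in air and 20006 to 28350 CPM in PM2.5. The untested marker of that list, Clec4f, was at 0 in all 10 libraries, and no marker of the other 3 lists was at 0 in a group. Of all genes in this comparison, 10.9% had an unadjusted p under 0.05 in either direction and 4.61% had it and were lower. Above 0 were 51.4% of all genes. Within groups, Zbtb46 had a Pearson r of -0.82 with the plasma cell list and Flt3 one of -0.66 over the 10 libraries. Over the 9 genes, r with that list ran from -0.82 (Zbtb46) to 0.13 (Itgae). With the monocyte list it ran from 0.13 (Xcr1) to 0.89 (Clec4a4). With the B cell list it ran from -0.82 (Esam) to -0.24 (Flt3). The part of these lists in the values of the 9 genes was not tested.

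**Figure D2:**
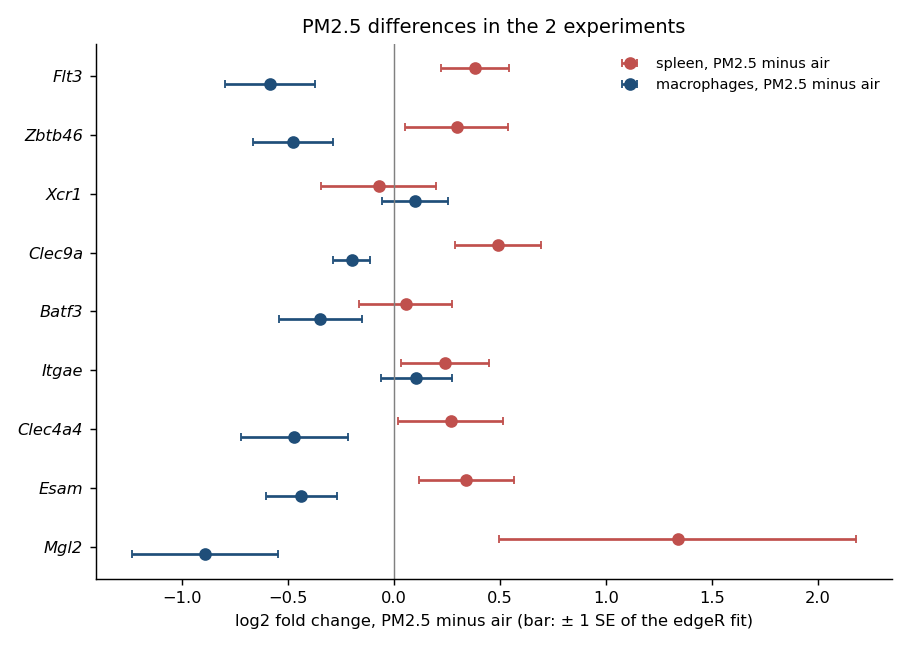
Log2 fold changes, PM2.5 minus air, of the 9 genes in whole spleen (red) and in isolated macrophages (blue), each fitted alone; bars are 1 SE to each side. For 7 genes the spleen value is above 0 and the macrophage value below it; Xcr1 and Itgae are the others, and no single value was called.

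Depth split the macrophage libraries, and the split was noticed in the data. Air replicates 1 and 3 and PM2.5 replicates 2, 3 and 5 held more than 25000000 counts, and the other 5 held at most 20992566. Above that depth, Flt3 stood at 91.9 and 115 CPM in air and between 42.3 and 63.6 CPM in PM2.5. Below it, Flt3 ran from 52.7 to 64.9 CPM in air and stood at 45.9 and 44.7 CPM in PM2.5. Flt3 and Zbtb46 were thus lower in PM2.5 without overlap in both depth classes, which was so for 2 of the 9 genes and 551 of all 15696 (3.51%). Zbtb46 ran from 46.0 to 49.6 CPM in air and 24.7 to 33.6 CPM in PM2.5 above that depth, and from 26.0 to 33.6 CPM and 22.4 to 22.5 CPM below it. Clec9a, Batf3, Clec4a4 and Mgl2 were lower without overlap above that depth and overlapped below it, and Xcr1, Itgae and Esam overlapped in both. Below it, PM2.5 held only replicates 1 and 4, and the overlap of Clec9a, Batf3, Clec4a4, Mgl2 and Esam came from replicate 1, tagged as air. Replicate 4 was below the lowest air library there: 21.9 against 25.1 CPM for Clec9a and 19.7 against 25.8 CPM for Batf3. For Clec4a4 it was 6.60 against 7.91 CPM, for Mgl2 0.631 against 0.940 CPM and for Esam 10.4 against 18.5 CPM. Lower without overlap above that depth, with 2 air and 3 PM2.5 libraries, were thus 6 of the 9 genes and 15.7% of all genes. With the depth class in the fit, deeper libraries were higher by 0.55 (log2) for Flt3 and 0.54 for Zbtb46, and no gene of 15696 was called for depth. None of the 9 was called for PM2.5 in that fit, and 5 had an unadjusted p under 0.05, all lower, beside 6.51% of all genes. With replicate 1 of PM2.5 left out as well, 7 had such a p, all lower, beside 8.94% of all genes.

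**Figure D3:**
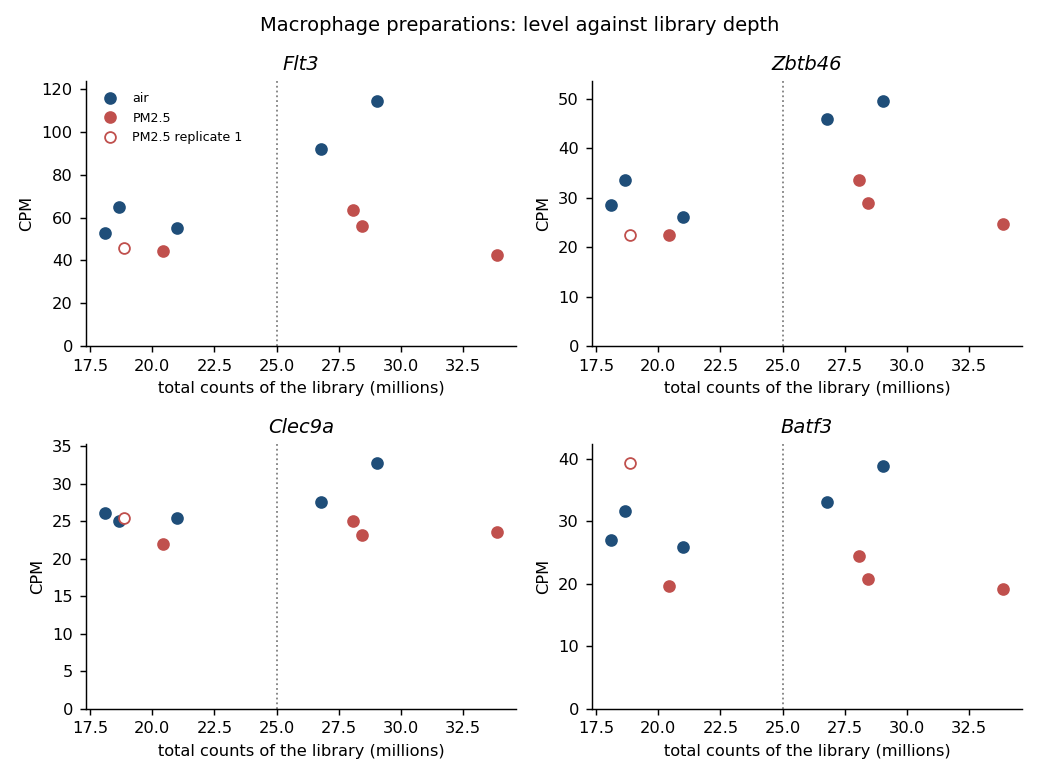
Level in CPM (vertical axis) against the library's total counts (horizontal axis) for 4 genes in the 10 macrophage libraries; the dotted line marks 25000000 counts and the open point is PM2.5 replicate 1. The PM2.5 points of Flt3 and Zbtb46 lie below the air points on each side of the line, and the open point of Batf3 lies at 39.3 CPM, above all others.

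A joint fit of the 18 libraries tested the difference itself, the macrophage effect of PM2.5 minus the spleen effect. None of the 9 was called by edgeR, against 259 of 17779 genes (1.46%). The effect was lower in macrophages for 8 of the 9 and higher for Xcr1, beside 47.3% of all genes with a higher one. For 6 of them (Flt3, Zbtb46, Clec9a, Clec4a4, Esam and Mgl2) the unadjusted p was under 0.05 with the macrophage effect lower, and 10.3% of all genes were so. The median was -0.74 on the log2 scale for the 9 genes and -0.03 for all genes. Flt3 had the smallest p, with a difference of -0.98 (SE 0.288, adjusted p = 0.0772), and Clec9a followed with -0.70 (SE 0.213, adjusted p = 0.0843). Esam had -0.79 (SE 0.288, adjusted p = 0.134), Mgl2 -2.23 (SE 0.865, adjusted p = 0.156) and Zbtb46 -0.78 (SE 0.322, adjusted p = 0.183). Clec4a4 had -0.74 (SE 0.354, adjusted p = 0.242). The other 3 were near 0 or imprecise: Batf3 at -0.42 (SE 0.305), Itgae at -0.14 (SE 0.249) and Xcr1 at 0.17 (SE 0.305). DESeq2 called Flt3 (-1.01, adjusted p = 0.0251) and Clec9a (-0.73, adjusted p = 0.0328), among 1044 genes in all (5.87%). Without spleen PM2.5 replicate 2, edgeR called Clec9a (-0.86, adjusted p = 0.0211), beside 2.02% of all genes. With depth class in the fit, an alternative chosen after seeing the data, edgeR called Flt3 (-1.03, adjusted p = 0.0293). In that fit 2.98% of all genes were called. Over all alternatives the adjusted p ran from 0.0251 to 0.284 for Flt3 and from 0.0211 to 0.201 for Clec9a. The experiments differ in material and in the stay in filtered air, and which of these goes with a difference cannot be told apart.

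The air groups of both experiments were then compared to show how much of each gene the macrophage preparations held. On the scale of all 18 libraries, 6 of the 9 genes were called, against 66.5% of all genes. All 6 were higher in the macrophage preparations, where 33.3% of all genes were called higher. Clec4a4 stood at 4.59 ± 0.960 CPM (SD, n = 4) in spleen and 13.2 ± 4.13 CPM (SD, n = 5) in macrophages, 1.52 higher on the log2 scale (SE 0.259, adjusted p = 4.27e-05). Flt3 stood at 31.7 ± 4.66 and 82.9 ± 29.2 CPM, 1.39 higher (SE 0.211, adjusted p = 1.15e-05). Batf3 was 1.004 higher (SE 0.220, adjusted p = 0.00056), Zbtb46 0.97 higher (SE 0.232, adjusted p = 0.00126), Clec9a 0.84 higher (SE 0.153, adjusted p = 8.97e-05) and Esam 0.59 higher (SE 0.205, adjusted p = 0.0172). In 5 of these, all but Zbtb46, every macrophage library was above every spleen library, which was so for 29.9% of all genes. These steps were small beside those of the macrophage genes themselves, such as Vcam1 at 5.59 higher (SE 0.215) and Csf1r at 5.44 (SE 0.184). Clec1b, whose exons overlap Clec9a, ran from 9.66 to 23.3 CPM in spleen air and from 70.0 to 95.6 CPM in macrophage air. Clec4a2, which shares sequence with Clec4a4, ran from 1.75 to 5.05 CPM and from 82.0 to 116.4 CPM. The part of shared sequence in the values of Clec9a and Clec4a4 was not tested.

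Xcr1 at 0.33 (SE 0.217, 95% interval -0.12 to 0.79), Itgae at -0.15 (SE 0.177, 95% interval -0.52 to 0.22) and Mgl2 at 1.21 (SE 0.628, adjusted p = 0.0968) did not pass in that comparison. Without spleen air replicate 1, which had the most Xcr1 of the spleen libraries, Xcr1 was called at 0.57 (adjusted p = 0.0174). In that fit 65.2% of all genes were called. The adjusted p of Xcr1 ran from 0.0174 to 0.808 over all alternatives. The call of Esam was lost without spleen air replicate 2 (adjusted p = 0.0875), without macrophage air replicate 3 (adjusted p = 0.0629) and without both spleen libraries with liver transcripts (adjusted p = 0.0545), with a range of 0.00757 to 0.0875. The material and the experiment cannot be told apart in this comparison. Of 18 endothelial markers, 3 were called higher in the macrophage preparations, among them Pecam1, and 11 were called lower, among them Cdh5. On the scale of all 18 libraries, they summed to 367 to 415 CPM in spleen air and 812 to 1018 CPM in macrophage air. Their part in the value of Esam was not tested. Flt3l, the ligand of Flt3, was lower there by 1.78 (SE 0.124, adjusted p = 4.16e-10).

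Within groups, the 9 genes had positive correlations with each other in the macrophage libraries. After subtracting group means, all 36 pairs had a positive Pearson r of log2(CPM + 1) over the 10 libraries, with a median of 0.59 and a range of 0.09 to 0.96. The highest was Flt3 with Zbtb46 at 0.96, and Flt3 with Mgl2 reached 0.81. Xcr1 was the loosest, with 0.09 against Mgl2 and 0.28 against Flt3. In the 8 spleen libraries 28 of 36 pairs were positive, with a median of 0.34, a high of 0.74 for Batf3 with Esam and a low of -0.79 for Itgae with Mgl2. These are descriptions over few libraries, and genes of 1 library share its scaling and cell content. Flt3 and Zbtb46 were both higher in the deeper macrophage libraries, by 0.55 and 0.54 on the log2 scale. Batf3 and Itgae, with r of 0.81, were both highest in macrophage PM2.5 replicate 1, the library tagged as air. Values of r without that library or with depth class removed were not computed, nor was the share of positive r over all pairs of genes.

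**Figure D4:**
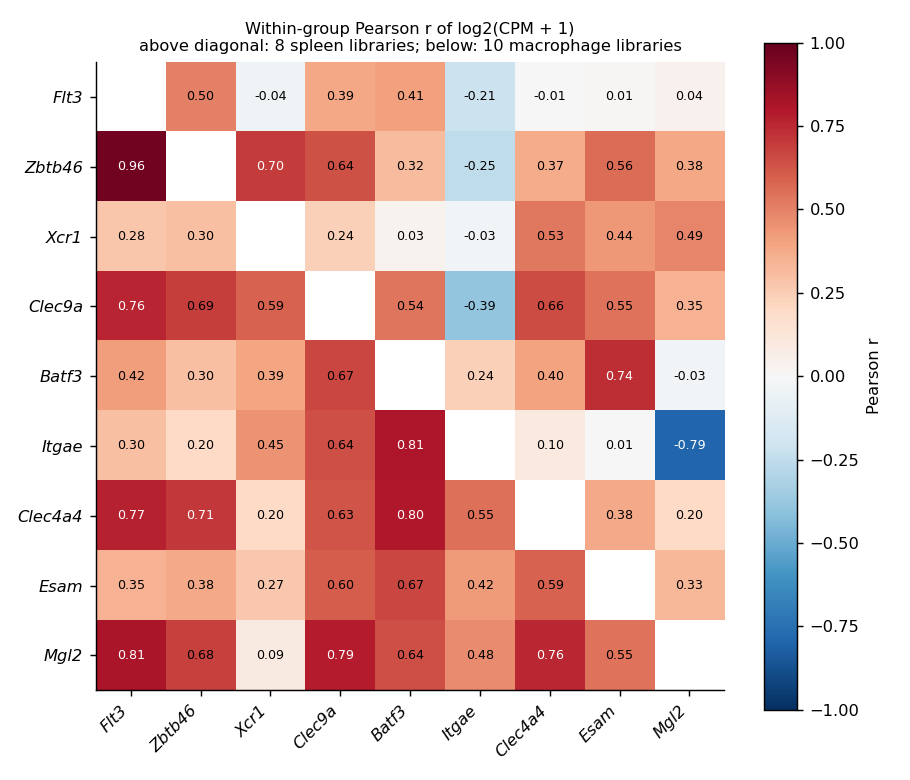
Pearson r between each pair of the 9 genes, from log2(CPM + 1) after subtracting each group's mean; above the diagonal the 8 spleen libraries, below it the 10 macrophage libraries. All 36 macrophage pairs are above 0, and 8 of the 36 spleen pairs are below 0, the lowest being Itgae with Mgl2 at -0.79.

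The genes most like each member, over all 18 libraries with group means subtracted and among 13038 genes, had r between 0.82 and 0.93. They were Ryr3, Ptpn3 and Slco5a1 for Flt3 (0.90, 0.89 and 0.89) and B4galt6, Ube2e2 and Prr5l for Zbtb46 (0.87, 0.86 and 0.84). For the cDC1 genes they were Serpinb9, Klrb1c and Lin7c for Xcr1 (0.89, 0.85 and 0.85), Gm34084 and Grin2c for Clec9a (0.93 and 0.93), Ccdc107, Ttc5 and Nudt3 for Batf3 (0.87, 0.87 and 0.86) and 3110082I17Rik, Thoc5 and 9130401M01Rik for Itgae (0.86, 0.82 and 0.82). For the cDC2 genes they were Apol7c, Lsp1 and Ptpro for Clec4a4 (0.91, 0.85 and 0.85), Pgf, Pros1 and Dcun1d2 for Esam (0.88, 0.85 and 0.84) and Mmp23, Rem1 and Fermt2 for Mgl2 (0.88, 0.86 and 0.83). No other member was among them.

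Other genes of the cDC1 program did not pass in either PM2.5 comparison. Of 22, 0 were called in spleen, where 18 were above 0 with a median of 0.30, and 0 in macrophages, where 11 were above 0. Beside this list and those that follow, 51.8% of all genes were above 0 in spleen and 51.4% in macrophages. Irf8, the transcription factor of cDC1 identity, stood at 395.6 ± 69.6 and 378.1 ± 20.3 CPM (SD, n = 4) in spleen air and PM2.5 and at 545.8 ± 32.0 and 551 ± 23.4 CPM (SD, n = 5) in macrophage air and PM2.5, with log2 fold changes of -0.07 and 0.01. Plpp1, a lipid phosphatase, had the smallest spleen p of the list. It stood at 12.5, 12.8, 11.7 and 7.67 CPM in spleen air and at 22.8, 23.5, 23.0 and 31.8 CPM in PM2.5, so that all PM2.5 libraries were higher (log2 fold change 1.17, SE 0.207, adjusted p = 0.0877). In macrophages Plpp1 differed by -0.13 (SE 0.124). The difference between the experiments was called for 2 of the 22, Plpp1 at -1.31 (SE 0.233, adjusted p = 0.0183) and the small GTPase gene Rab43 at -1.85 (SE 0.425, adjusted p = 0.0434), both with the macrophage effect lower, beside 1.04% of all genes. Rab43 was also 4.74 higher on the log2 scale (SE 0.349) in macrophage air than in spleen air. The call of Plpp1 held in 23 of 26 alternatives (adjusted p from 3.54e-05 to 0.102) and in each omission of 1 library. That of Rab43 held in 11 of 26 (adjusted p from 0.00109 to 0.157), and was lost without spleen air replicate 1 or 3, spleen PM2.5 replicate 4, any 1 macrophage air library, or macrophage PM2.5 replicate 3, 4 or 5. DESeq2 called 4 of the 22 in the spleen comparison, all higher, and 5.01% of all genes.

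Of 25 other cDC2 genes, 0 were called in either PM2.5 comparison; 13 were above 0 in spleen (median 0.01) and 8 in macrophages (median -0.14). Cd209a, the lectin DC-SIGN of cDC2 and monocyte-derived cells, had log2 fold changes of 0.38 (SE 0.368) in spleen and -0.65 (SE 0.293, adjusted p = 0.452) in macrophages. Klf4, a transcription factor of cDC2 and monocytes, had the smallest macrophage p of this list, at -0.45 (SE 0.129, adjusted p = 0.287). The difference was called for 2 of the 25, both with the macrophage effect lower, beside 1.04% of all genes. They were Clec4a1 at -0.87 (SE 0.212, adjusted p = 0.0478) and Clec4a2 at -1.18 (SE 0.289, adjusted p = 0.0483), lectin receptors from the family of Clec4a4. Clec4a1 rested on 7.97, 8.398, 6.66 and 6.36 CPM in spleen air against 11.1, 9.50, 12.2 and 15.9 CPM in spleen PM2.5, groups that did not overlap. In the air groups, both were far higher in the macrophage preparations than in spleen, by 4.97 (Clec4a1, SE 0.179) and 5.04 (Clec4a2, SE 0.240) on the log2 scale. The calls held in 11 of 26 alternatives for Clec4a1 (adjusted p from 0.00672 to 0.212) and 9 of 26 for Clec4a2 (0.00408 to 0.206). Both were lost without spleen air replicate 3 or 4, spleen PM2.5 replicate 3 or 4, any 1 macrophage air library, or macrophage PM2.5 replicate 3, 4 or 5, and that of Clec4a2 also without replicate 2 of either PM2.5 group. DESeq2 called 2 of the 25 in the spleen comparison, both higher, beside the same 5.01% of all genes.

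Genes shared by conventional dendritic cells and the Flt3 pathway numbered 26, with 0 called by edgeR in either PM2.5 comparison (DESeq2 called 1, higher, in spleen, beside 5.01% of all genes), 11 above 0 in spleen and 6 in macrophages. Itgax, the integrin CD11c, went from 62.0 ± 11.6 to 80.3 ± 9.22 CPM (SD, n = 4) in spleen, a log2 difference of 0.37 (SE 0.150, adjusted p = 0.248), and from 297.6 ± 73.5 to 223 ± 25.1 CPM (SD, n = 5) in macrophages, -0.42 (SE 0.158, adjusted p = 0.383). Flt3l, in contrast, had log2 fold changes of 0.10 (SE 0.145) and 0.03 (SE 0.0997). Of the genes of mature, migrating dendritic cells, 0 of 19 in spleen and 0 of 18 in macrophages were called. Ccr7, which guides these cells to T cell zones, had values of -0.12 (SE 0.122) and -0.23 (SE 0.120). Plasmacytoid dendritic cell genes were likewise not called (0 of 20 and 0 of 19), and Siglech, their defining lectin, had -0.02 (SE 0.189) and -0.16 (SE 0.157).

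Genes of early progenitors, a list that also holds Flt3, were not called in either PM2.5 comparison (0 of 16 in each), with 13 above 0 in spleen (median 0.48) and 7 in macrophages (median -0.08). Kit, the stem cell factor receptor, had the values 0.79 (SE 0.205, adjusted p = 0.127) in spleen and -0.46 (SE 0.213, adjusted p = 0.472) in macrophages, and a difference of -1.25 (adjusted p = 0.0509). Csf1r, the growth factor receptor of macrophages and their precursors, was the member called for the difference, at -0.90 (SE 0.208, adjusted p = 0.0434). Of all genes, 1.04% were called lower. The red pulp macrophage and monocyte lists hold Csf1r too. For the difference, 3 of 16 red pulp macrophage genes were called lower, and of 15 monocyte genes 3 were called lower and 1 higher. The call of Csf1r held in 10 of 26 alternatives (adjusted p from 0.00139 to 0.174). It was lost without spleen air replicate 3 or 4, spleen PM2.5 replicate 1, 3 or 4, macrophage air replicate 1, 2, 3 or 5, or macrophage PM2.5 replicate 3, 4 or 5. DESeq2 called 2 of the 16 higher in spleen, beside 5.01% of all genes called, and 2 higher and 1 lower in macrophages, beside 1.11%.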

How the data were processed

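RNA was measured in 18 libraries. The authors deposited unnormalized read counts per gene; HTSeq 0.10.0, FastQC 0.10.1, mm10 and GRCm38 stand in the submitters' processing notes. For aligner, annotation release and strand setting, nothing is given in the sources used here. Of 55414 identifiers, 52133 matched GENCODE M21, and the others held 0.303% of counts. Counts were filtered with filterByExpr (minimum count 10, minimum total 15), scaled with TMM and tested two-sided with edgeR 4.0.16 (R 4.3.3) by the quasi-likelihood test, each experiment alone. The difference between experiments and the comparison of air groups came from a joint fit of all 18 libraries. P-values were adjusted by Benjamini-Hochberg over all genes, with a threshold of 0.05. Unless another tool is named, p-values are edgeR's; intervals are 95%. No 2 libraries of a group were copies (0 of 32 pairs identical, lowest chi-square per degree of freedom 12.3).

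The 9 genes and all lists were chosen with earlier results of these data known. Named genes were the 9, a set of reference genes, and per dendritic cell or progenitor list the 3 with the smallest p in each PM2.5 comparison; Csf1r, Clec1b and Haspin enter by their list or overlap. Alternatives were DESeq2 size factors, DESeq2 1.42.0, limma-voom (limma 3.58.1), no filter, a replicate block, macrophage PM2.5 replicate 1 counted as air and the omission of each library. Leaving out spleen air replicates 3 and 4 (liver transcripts), leaving out spleen PM2.5 replicates 2 and 4 (most erythroid), and depth class as a covariate were chosen after the data were seen. The fits were tested on simulated data in which known genes differed. Of the genes set to differ by 1.5-fold, 2.99% were called in spleen, 34.3% in macrophages and 0% for the difference. At 2-fold these shares were 28.4%, 68.7% and 32.8%. A gene with a difference of that size that is not called may thus still differ. Of the genes most like each of the 9 (the 3 with the highest r), 1 is not reported here.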

Additional observations from a re-analysis of the deposited data

Results flagged for a closer look

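A check of each gene in each group for a library far from the others, by Dixon's ratio at its 95% value, covered 36 groups and marked 2, where chance would mark about 1.8. Batf3 stood at 39.3 CPM in macrophage PM2.5 replicate 1, while the other 4 PM2.5 libraries lay between 19.1 and 24.4 CPM. This is the library whose treatment tag reads air. Xcr1 stood at 8.44 CPM in macrophage PM2.5 replicate 5, while the others lay between 11.6 and 12.6 CPM. Both values lie close to or within the range of the air group.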

How the results depend on the processing

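Of 774 values of the 9 genes under alternatives, 755 kept their direction and side of the threshold, 10 reversed, 6 passed it and 3 lost it. The 10 reversed values lay between -0.19 and 0.20. In spleen, Xcr1 turned to 0.20 on omission of air replicate 1 and to 0.030 on omission of PM2.5 replicate 1 (range -0.21 to 0.20 over omissions of 1 library). Batf3 turned to -0.018 on omission of air replicate 1 and to -0.19 on omission of PM2.5 replicate 3 (range -0.19 to 0.17). In macrophages, Itgae was -0.14 with PM2.5 replicate 1 counted as air and -0.039 without it (range -0.039 to 0.19). With depth class as a covariate, Itgae was -0.18 with that library counted as air and -0.10 with it left out, and Xcr1 was -0.029 with it counted as air. The difference for Xcr1 was -0.11 without spleen air replicate 1 (range -0.11 to 0.32). The cause of these was not tested.

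Counts of called genes moved more. The 2 calls in spleen became 1 with DESeq2 size factors, 830 with DESeq2, 1 with limma-voom, 461 with no filter, 0 without both spleen air libraries with liver transcripts, 0 without the most erythroid PM2.5 pair, and 0 to 219 on omission of 1 library. The 0 calls in macrophages became 175 with DESeq2, 1 with no filter and 0 to 17 on omission of 1 library. The 259 calls for the difference (74 higher, 185 lower) became 1044 with DESeq2 (393 and 651), 3 with limma-voom, 87 with macrophage PM2.5 replicate 1 counted as air (0 and 87), 9 without both spleen air libraries with liver transcripts, 48 without the most erythroid PM2.5 pair, 530 with depth class as a covariate (240 and 290), and 68 to 1317 on omission of 1 library. The 11831 calls between preparations stayed within 1.5 times. Mgl2, with 0 to 89 counts per library, had the largest SE of the 9 genes in each comparison (0.842 in spleen, 0.343 in macrophages, 0.865 for the difference and 0.628 between preparations).

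Labels give the groups equal replicate numbers but do not say that a number pairs samples. Same-numbered libraries had within-group deviations correlated between -0.15 and 0.08 in spleen and between -0.15 and 0.36 in macrophages, and 1 of 4 and 2 of 5 air libraries correlated best with their own number. With a replicate block, 3 genes were called in spleen and 0 in macrophages, none of them among the 9.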
